A study of Rattus norvegicus with 24 samples.

Results

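Sox2, Sox11, Sox4, Sox9, Sox17 and Sox18 were followed across urethral samples of virgin female Sprague-Dawley rats, 12 weeks old, after simulated vaginal delivery (SVD), an injury made by crushing the pudendal nerve and distending the vagina. These 6 genes were chosen by symbol, Sox2 and Sox11 because the study counts them among the neurogenesis genes raised at 3d, and the others as relatives. A row was found for 5 of the 6 among 32883 genes in the table, and all 5 passed the filter on low values. Sox4 matched no row and was not analysed here.

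The 24 samples formed 6 groups of 4. Wild-type rats had received saline, allogeneic mesoangioblasts (MABs-allo) or mesoangioblasts overexpressing VEGF (MABs-allo-VEGF) into the aorta soon after SVD, and the urethra was collected 3 days (3d) or 7 days (7d) later. Mesoangioblasts are vessel-associated progenitor cells, here expanded as a line from the calf muscle of another, 3-week-old rat and selected for alkaline phosphatase. For tracking, mesoangioblasts were transduced with a lentiviral reporter of green fluorescent protein and luciferase under the CMV promoter and sorted by green fluorescence. For MABs-allo-VEGF, a lentiviral VEGF165 with truncated CD34 under the SFFV promoter was used. The paper reports bioluminescence from both cell treatments. All groups, saline included, had the injury, and no uninjured urethra was analysed here. The labels give the urethra of MABs-allo-VEGF rats the genotype VEGF OE, although the overexpression was in the injected cells and the hosts were wild type. They name replicates 6 and 7 of MABs-allo-VEGF 7d as recovered, that is with returned urethral function. The labels do not say which samples came from the same animal or batch, so p-values measure the spread between these samples.

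SOX proteins are transcription factors that bind the minor groove of DNA through an HMG box and act with partner factors. SOX2 keeps stem and progenitor cells, including epithelial basal cells and neural progenitors, in an undifferentiated state, and in injured nerve it marks Schwann cells that have left the myelinating state. SOX11 and SOX4 (the SoxC group) act in young neurons and in axon regrowth, SOX9 (SoxE) in cartilage and in many epithelial progenitors, and SOX17 and SOX18 (SoxF) in endothelium.

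For Sox2 and Sox11, which were selected together for a rise at 3d, the 250 bases upstream of the start were taken from RefSeq (GRCr8). This table held a promoter for 2 of the 6 genes. The window of Sox2 is chr2:119464881-119465130, plus strand, and that of Sox11 is chr6:49738795-49739044, minus strand. Each is written 5′ to 3′ along its gene, and the capitals mark the CCAAT and GGGCGG motifs, here both on the opposite strand (ATTGG and CCGCCC).
Sox2: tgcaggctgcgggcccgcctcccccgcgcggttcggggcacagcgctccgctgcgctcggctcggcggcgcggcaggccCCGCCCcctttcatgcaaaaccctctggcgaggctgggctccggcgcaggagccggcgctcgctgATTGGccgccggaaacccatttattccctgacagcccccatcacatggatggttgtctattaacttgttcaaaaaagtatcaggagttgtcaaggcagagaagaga
Sox11: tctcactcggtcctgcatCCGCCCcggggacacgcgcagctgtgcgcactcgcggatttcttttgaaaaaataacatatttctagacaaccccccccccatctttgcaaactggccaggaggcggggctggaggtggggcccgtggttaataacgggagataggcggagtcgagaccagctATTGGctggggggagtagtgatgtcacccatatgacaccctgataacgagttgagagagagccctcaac
CCAAT, the letters bound by NF-Y, began at -106 in Sox2 and at -69 in Sox11, and 34.0% of the 33469 promoters held it on either strand. GGGCGG, the letters bound by SP1, began at -171 in Sox2 and -232 in Sox11, against 30.5% of all promoters. TATAAA (12.9% of all promoters), the SOX-type letters ACAAAG (16.3%) and ACAATG (11.1%), the octamer ATGCAAAT (1.56%) and ACGTG (16.6%) had no match on either strand of the 2 windows. No motif here overlapped another. GC content was 64.4% in Sox2 and 56.8% in Sox11 against a median of 51.2%, and CpG pairs numbered 23 and 14 against a median of 5.

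Libraries were 3′ mRNA libraries of 2170695 to 10166052 reads, and values are normalized gene counts, in which 1 read was worth 1.67 to 9.23 counts. The first principal component, with 70.7% of the variance of the 500 most variable genes, separated most cell-treated 3d samples (scores of 49.8 to 90.1) from all 7d samples (-55.8 to -26.6). Saline 3d replicate 6 (54.6, other saline 3d samples -52.3 to -6.4) and MABs-allo-VEGF 3d replicate 4 (0.7, others in its group 57.3 to 75.2) stood apart from their groups. Each of them lay toward the other treatment. Saline 3d replicate 8 (-52.3) lay off the other way from replicates 9 and 10 (-14.9 and -6.4), among the 7d scores. The cell-treated 3d libraries other than that replicate 4 also had 23.8% to 39.1% of reads in mitochondrially encoded genes, against 15.7% in replicate 4 and 11.8% to 20.04% in all other samples. As markers of the labelled tissue, urothelial and squamous, smooth muscle and striated muscle genes were detected in every group. Their summed levels were uneven within groups. Urothelial and squamous genes summed to 5244 in saline 3d replicate 8 (others of its group 69665 to 82769). In MABs-allo-VEGF 3d replicate 2 they summed to 5159 (others of its group 71188 to 119924). Smooth muscle genes summed to 22471 in saline 3d replicate 8 (others of its group 88342 to 165791).

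Sox2 (ENSRNOG00000012199) was highest at 3d in every treatment. In saline 3d its normalized gene count was 1061, 651, 765 and 792 in replicates 6, 8, 9 and 10. MABs-allo 3d gave 3145, 957, 1265 and 1128 in replicates 1 to 4, and MABs-allo-VEGF 3d gave 1828, 1792, 2285 and 833. Saline replicate 6 and MABs-allo-VEGF replicate 4, the samples that stood apart, were also the highest of the saline group and the lowest of the MABs-allo-VEGF group for Sox2. Both cell-treated groups overlapped saline 3d, and 6 of the 8 cell-treated samples were above every saline 3d sample.

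At 7d Sox2 was lower and the groups were close. Saline 7d samples had 352, 271, 388 and 248 normalized counts in replicates 1, 2, 3 and 5. In MABs-allo 7d the counts were 573, 682, 250 and 324 in replicates 7.2, 9, 11 and 13, and in MABs-allo-VEGF 7d they were 751 and 662 in the recovered replicates 6 and 7 and 258 and 476 in replicates 11 and 12. Within each treatment, every 3d sample was above every 7d sample.

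Ordered by mean ± SD (n = 4), Sox2 was 1684 ± 611 in MABs-allo-VEGF 3d, 1624 ± 1022 in MABs-allo 3d, 817 ± 174 in saline 3d, 537 ± 218 in MABs-allo-VEGF 7d, 457 ± 204 in MABs-allo 7d and 315 ± 66.1 in saline 7d. The ranges of each pair of neighbours in this order overlapped. On the scale of log2(normalized count + 1), Sox2 at 3d was 0.84 (SE 0.39) above saline in MABs-allo and 0.97 (SE 0.39) above it in MABs-allo-VEGF, and the 2 cell treatments differed by 0.13 (SE 0.39), which was -0.06 to 0.51 with 1 sample left out. These comparisons share the saline samples, and because the 3d samples chose the gene they are given without a test. The paper, which used DESeq2, counts Sox2 with a few genes raised at 3d in MABs-allo-VEGF alone. That statement was not tested here. Without MABs-allo replicate 1, the highest sample, the difference from saline was 0.46. Without both samples that stood apart, the difference of MABs-allo-VEGF from saline was 1.42, and that of MABs-allo 0.97. Each of those 2 samples lay toward the other treatment, so leaving both out favours a wider difference. With any 1 sample left out, the difference from saline was 0.46 to 1.04 in MABs-allo and 0.80 to 1.28 in MABs-allo-VEGF.

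From 7d to 3d, the log2 difference of Sox2 was 1.37 in saline, 1.77 in MABs-allo and 1.67 in MABs-allo-VEGF (SE 0.39 each). The higher level at 3d was thus also measured in rats that received no cells. Without the samples that stood apart these values were 1.24, 1.77 and 1.98.

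**Figure D1:**
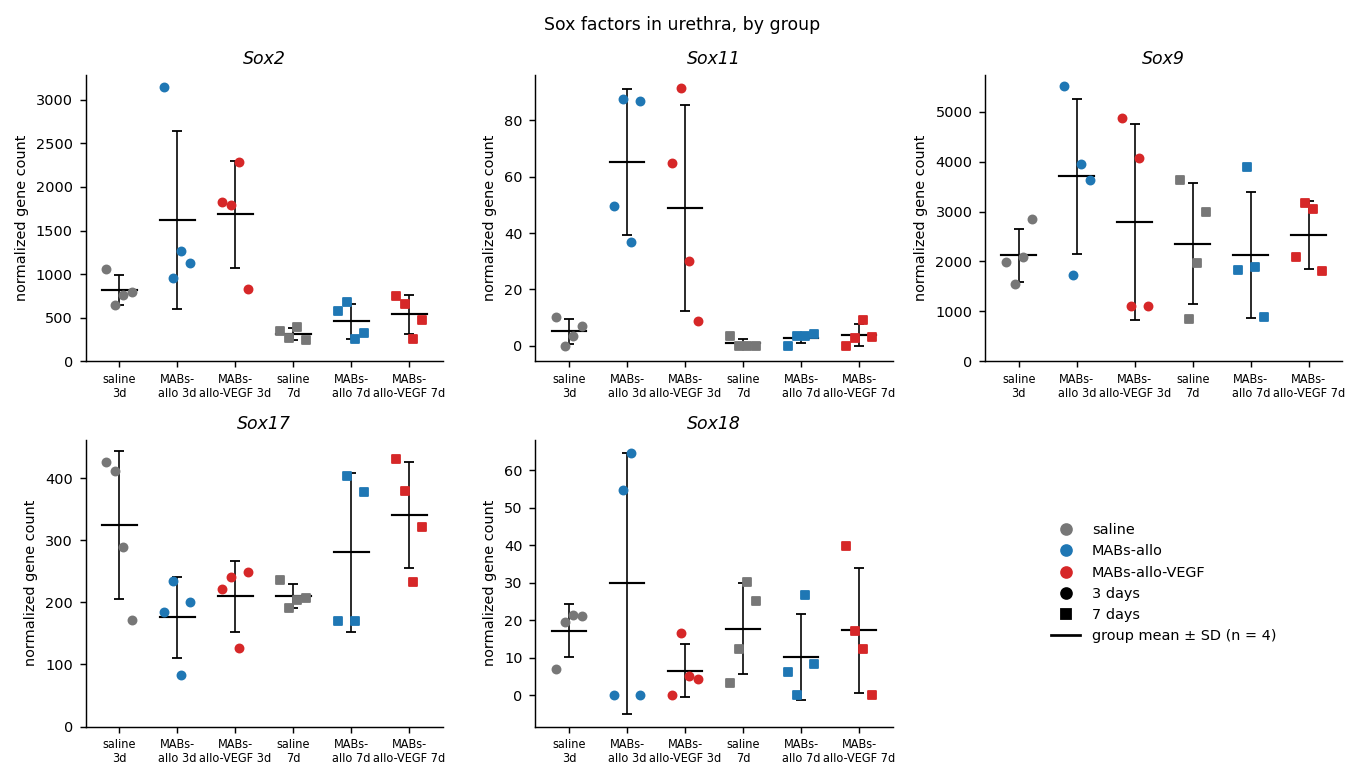
Normalized gene counts of 5 Sox factors (vertical axes) in the 24 urethral samples, by group (horizontal axis), with circles for 3d, squares for 7d, and lines for the group mean ± SD (n = 4). Sox2 and Sox11 had their highest means in the cell-treated 3d groups. Saline 3d overlapped both of these groups for Sox2, and MABs-allo-VEGF 3d for Sox11. The groups also overlapped for Sox9, Sox17 and Sox18.

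Sox11 (ENSRNOG00000030034), the SoxC factor of young and regrowing neurons, was near the limit of detection outside the cell-treated 3d groups. In saline 3d it had 3, 0, 1 and 2 reads, or 10.3, 0, 3.57 and 7.04 normalized counts, in replicates 6, 8, 9 and 10. MABs-allo 3d had 7, 16, 4 and 16 reads in replicates 1 to 4, which are 49.7, 87.5, 36.9 and 86.8 normalized counts. MABs-allo-VEGF 3d had 12, 11, 6 and 2 reads, or 64.9, 91.7, 30.3 and 8.91 normalized counts. All 4 MABs-allo samples were above all saline samples, whereas replicate 4 of MABs-allo-VEGF lay within the saline range. At 7d, Sox11 had 1 read over the 4 saline samples, 4 over the MABs-allo samples and 5 over the MABs-allo-VEGF samples, with no sample above 3 reads.

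Pooled over each group and corrected for depth, Sox11 in MABs-allo 3d was 12.9 times saline 3d (exact 95% interval 5.47 to 37.1, from 43 against 6 reads). In MABs-allo-VEGF 3d it was 7.88 times saline 3d (3.24 to 23.1, from 31 against 6 reads). Against their own 7d groups the ratios were 25.6 (9.29 to 98.0) for MABs-allo and 10.8 (4.16 to 35.5) for MABs-allo-VEGF. These intervals cover counting error only and not the spread between samples, and the ratios are descriptions since the 3d samples chose the gene. For saline 3d against saline 7d, with 3 reads or fewer in every sample, no ratio is given.

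At 3d Sox2 and Sox11 both had their lowest mean in saline, but the cell treatments stood in opposite order (for Sox11 65.2 ± 25.9 in MABs-allo and 48.9 ± 36.7 in MABs-allo-VEGF, n = 4), with overlapping ranges. MABs-allo replicate 1 had the most Sox2 and the second lowest Sox11 of its group, and MABs-allo-VEGF replicate 3 had the most Sox2 and a Sox11 count below replicates 1 and 2. Over the 24 samples their log2 values had a Pearson r of 0.71, and once the 6 group means were removed it was -0.05. Both share a low level in MABs-allo-VEGF replicate 4.

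The levels of both genes also moved with measures of the libraries. All cell-treated 3d libraries held fewer reads (2170695 to 4491900) than any other library (4851797 or more), so depth and cell treatment at 3d cannot be told apart. Log2 total reads had an r of -0.76 with Sox2 and -0.65 with Sox11 (-0.37 and 0.13 with group means removed). The share of small noncoding RNA reads, a sign of library quality, had a Spearman rho of 0.90 and 0.76 (r of 0.07 and -0.01 with group means removed). The 7 libraries with at least 23.8% mitochondrial reads held the 7 highest Sox11 values and 6 of the 7 highest Sox2 values. Replicate 4 of MABs-allo-VEGF 3d, with 15.7%, had Sox2 and Sox11 levels near those of saline 3d. In saline 3d, replicate 6 had the highest mitochondrial share (20.04%) and the highest Sox2 and Sox11. With group means removed, the r between the mitochondrial share and the log2 level over 24 samples was 0.43 for Sox2 and 0.44 for Sox11. The part of these measures in the levels of Sox2 and Sox11 was not tested.

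**Figure D2:**
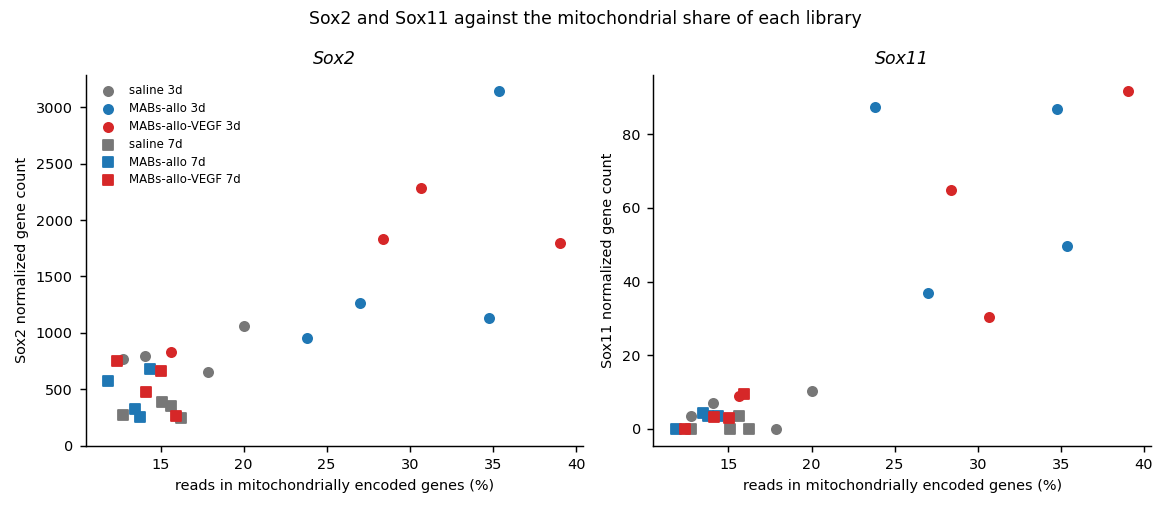
Normalized gene counts of Sox2 (left) and Sox11 (right) against the percentage of reads in mitochondrially encoded genes, 1 point per sample, coloured by treatment, with circles for 3d and squares for 7d. The 7 samples from 23.8% to 39.1% are all cell-treated 3d samples, and the remaining one (MABs-allo-VEGF replicate 4) lies at 15.7% among the other groups.

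In the comparisons of 7d samples, which did not choose the genes, all 5 factors were tested with limma over 16287 genes, and a gene was called when its Benjamini-Hochberg adjusted p was under 0.05 and its log2 fold change beyond 1 either way. In MABs-allo against saline, 0 of the 5 were called, where 0% of all genes were. Sox2 was 0.44 (SE 0.39, adjusted p = 0.948) higher in MABs-allo. For MABs-allo-VEGF against saline 0 of the 5 were also called, against 0% of all genes, with Sox2 0.68 (SE 0.39, adjusted p = 0.818) and Sox17 0.67 (SE 0.37, adjusted p = 0.813) higher in MABs-allo-VEGF. When the cell treatments were compared at 7d, 0 of the 5 were called, with 0% over all genes, and Sox2 was higher in MABs-allo-VEGF by 0.24 (SE 0.39, adjusted p = 1). None of the 5 was below an unadjusted p of 0.05 in these 3 comparisons, and neither DESeq2 nor edgeR called any of them. Over all genes 1014, 1033 and 452 were below it, DESeq2 called 0, 29 and 4 of all genes, and edgeR 0 in each. Sox11 was at 3 reads or fewer in every 7d sample, so no fold is given for it there. Sox18 had 0 to 16 reads per 7d sample (SE 1.38), so these tests could show little for it or for Sox11.

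Among the 4 MABs-allo-VEGF 7d samples, those named as recovered had more Sox2 than the others, 751 and 662 against 258 and 476 normalized counts. The log2 difference was 1.01 (SE 0.52), and it did not pass the limma test (adjusted p = 1). Sox17 was also higher in both recovered samples, with 432 and 379 against 233 and 322 normalized counts, a log2 difference of 0.56 (SE 0.52, adjusted p = 1). In total 0 of 5 factors were called, as were 0% of all genes, of which 443 were below an unadjusted p of 0.05. DESeq2 called 1 gene and edgeR 0, none of them these factors.

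**Figure D3:**
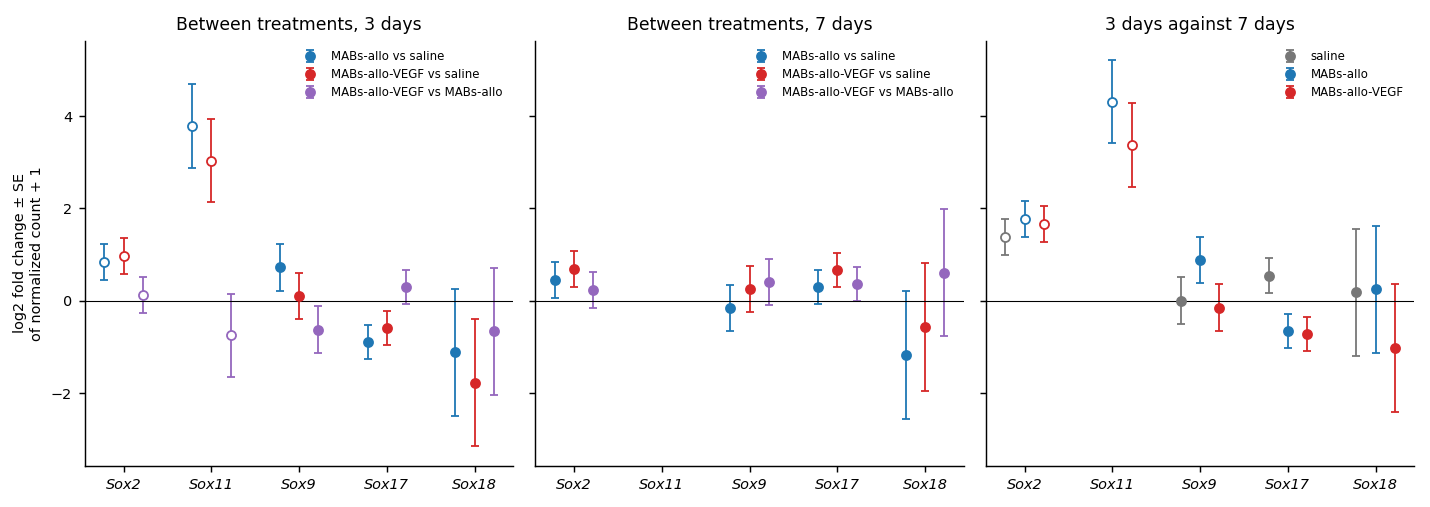
Log2 fold change ± SE of normalized gene count + 1 for 5 Sox factors between treatments at 3d (left), between treatments at 7d (middle) and at 3d against 7d within each treatment (right), from 1 limma fit of the 24 samples. Open points are Sox2 and Sox11 in comparisons with 3d samples, described only, and Sox11 is left out where both groups were at 3 reads or fewer; no filled point passed the test.

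Sox9, Sox17 and Sox18 were tested at 3d too, where Sox4 could not be. For MABs-allo against saline at 3d, 0 of 3 were called, where 12.3% of all genes were. In MABs-allo-VEGF against saline 0 of 3 were called, with 0.0307% of all genes, and between the cell treatments 0 of 3, with 0.00614%. The 0.0307% was 5 genes, which became 2213 without both samples that stood apart and 0 without saline replicate 8. At 3d against 7d, none of the 3 was called in saline, MABs-allo or MABs-allo-VEGF, where 3.19%, 23.0% and 15.3% of all genes were. DESeq2 and edgeR on the recovered reads called none of the 3 in these 6 comparisons, and Sox17 in MABs-allo against saline at 3d was the one result with an unadjusted p below 0.05.

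Sox17 (ENSRNOG00000027357), an endothelial factor of arteries and developing vessels, was the one nearest to the threshold. In saline 3d it had 427, 412, 289 and 172 normalized counts in replicates 6, 8, 9 and 10. MABs-allo 3d had 185, 235, 83.1 and 201 in replicates 1 to 4, and MABs-allo-VEGF 3d had 222, 242, 126 and 249. The cell-treated samples were all below the 3 highest saline samples and overlapped the lowest, replicate 10. The log2 difference from saline was -0.90 (SE 0.37, limma adjusted p = 0.10) in MABs-allo and -0.59 (SE 0.37, adjusted p = 0.416) in MABs-allo-VEGF.

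This result lay at the edge of the call. With saline replicate 10 left out, Sox17 was called lower in MABs-allo against saline (-1.17, limma adjusted p = 0.0488), likewise after quantile normalization (-1.25, adjusted p = 0.0440) and after scaling to the same total (-1.17, adjusted p = 0.0296). Scaling to the same total moved the median of all genes in this comparison from 0.07 to -0.19, and relative to the median Sox17 was at -0.96 before and -0.98 after.

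At 7d the order of Sox17 turned. Saline 7d had 237, 192, 204 and 208 normalized counts in replicates 1, 2, 3 and 5, MABs-allo 7d had 170, 404, 170 and 378 in replicates 7.2, 9, 11 and 13, and the 4 MABs-allo-VEGF 7d samples ranged from 233 to 432. Saline was the treatment with the highest mean at 3d (325 ± 119) and the lowest at 7d (210 ± 19.1, n = 4 each). The change with day differed from that in saline by -1.19 (SE 0.52) in MABs-allo and by -1.26 (SE 0.52) in MABs-allo-VEGF on the log2 scale. As interaction terms over all genes neither passed (limma adjusted p = 0.323 and 0.556).

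Endothelial genes stood beside Sox17 as follows. Of a list of 14, 12 were tested, Pecam1 matched no row and Robo4 was at 0 in every sample. In MABs-allo against saline at 3d, 4 of 12 were called lower and 0 higher, where 466 of all 16287 genes were called lower and 1531 higher, with a median log2 fold change of -0.97 against 0.07 over all genes. The 4 were Tie1 (-1.33, adjusted p = 0.0142), Emcn (-1.37, adjusted p = 0.0196), Esam (-1.08, adjusted p = 0.0329) and Cldn5 (-1.18, adjusted p = 0.0458), genes of the endothelial surface and junctions. In MABs-allo-VEGF against saline none was called and the median was -0.49. These calls were lost in 3, 5, 6 and 9 of 18 alternatives. The summed level of the 13 genes found was 11632 to 19716 in saline 3d, 6553 to 12780 in MABs-allo 3d and 7164 to 18552 in MABs-allo-VEGF 3d, and 10138 to 18116 at 7d. In whole urethra, fewer endothelial cells and less RNA per cell cannot be told apart. With group means removed, the r between the summed level and Sox17 over the 24 samples was 0.44. It was 0.33 for fibroblast and 0.22 for Schwann cell genes, and negative for the epithelial, muscle, muscle precursor and erythroid lists. Fibroblast and Schwann cell genes had lower medians than endothelial genes in MABs-allo against saline at 3d (-1.49 and -1.40).

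**Figure D4:**
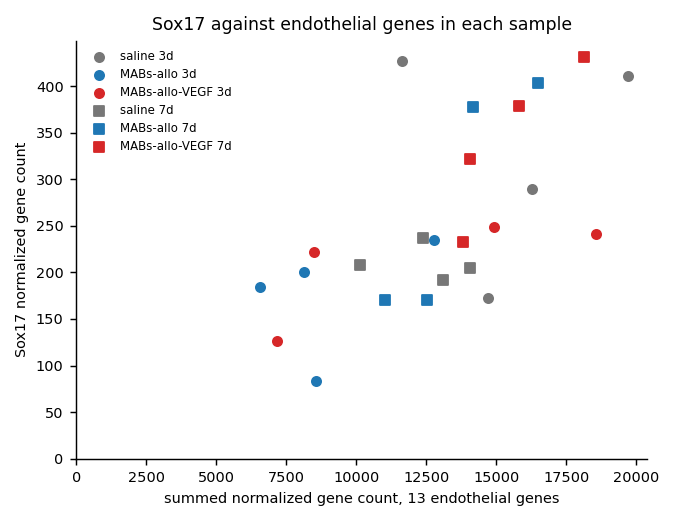
Normalized gene count of Sox17 against the summed normalized gene count of 13 endothelial genes, 1 point per sample, with circles for 3d and squares for 7d. MABs-allo 3d samples lie between 6553 and 12780 on the horizontal axis, and saline 3d samples between 11632 and 19716.

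Sox18 (ENSRNOG00000016248), the other SoxF factor of blood and lymphatic vessels, was close to the limit of detection, with 0 to 16 reads per sample. MABs-allo 3d showed both extremes, with 0, 10, 7 and 0 reads (0, 54.7, 64.6 and 0 normalized counts) in replicates 1 to 4. Saline 3d had 2, 5, 6 and 6 reads, and MABs-allo-VEGF 3d had 0, 2, 1 and 1. At 7d the samples had 0 to 16 reads and all groups overlapped. The limma difference of MABs-allo from saline at 3d was -1.12 (SE 1.38, adjusted p = 0.611), while on the reads it was 0.77 with DESeq2 (adjusted p = 0.675) and 0.62 with edgeR (adjusted p = 0.733). No direction can be given for Sox18 at this depth.

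Sox9 (ENSRNOG00000002607) varied widely within most groups. Its normalized count in saline 3d ranged from 1556 to 2847, in MABs-allo 3d from 1729 to 5510, in MABs-allo-VEGF 3d from 1108 to 4872, and at 7d from 856 to 3891. MABs-allo 3d had the highest mean (3706 ± 1552, n = 4), 0.72 (SE 0.50) above saline on the log2 scale (limma adjusted p = 0.332) and 0.88 (SE 0.50) above MABs-allo 7d (adjusted p = 0.193). MABs-allo-VEGF 3d split into 2 high samples, replicates 1 and 3 with 4872 and 4066, and 2 low ones, replicates 2 and 4 with 1108 and 1109. It was 0.62 (SE 0.50) below MABs-allo (adjusted p = 0.882), a difference that was 0.10 above it with sample weights. Of 12 cartilage matrix genes that SOX9 activates in cartilage, 8 were tested and Matn1 was at 0 in every sample. Only Col11a1 was called, higher in MABs-allo-VEGF at 3d than at 7d (2.59, limma adjusted p = 0.0421, lost in 8 of 18 alternatives). This was 1 of 8 genes in a comparison where 15.3% of all genes were called.

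Of 14 other family members, 12 were found and 7 were tested (Sox5, Sox6, Sox7, Sox8, Sox10, Sox13 and Sox15), and Sox21 and Sry were at 0 in every sample. Their median log2 fold change in MABs-allo against saline at 3d was -0.60, against 0.07 over all genes. In that comparison 1 of 7 was called, where 12.3% of all genes were. At 3d against 7d, 1, 2 and 2 of 7 were called in saline, MABs-allo and MABs-allo-VEGF, where 3.19%, 23.0% and 15.3% of all genes were. None was called in the other comparisons. Those called were Sox6 and Sox13, both SoxD factors, which lack an activation domain of their own and act beside SOX9 in cartilage.

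Sox6 (ENSRNOG00000020514), known also to restrain slow-fibre genes in muscle, was higher at 3d in all treatments. It had 127, 157, 89.3 and 120 normalized counts in saline 3d replicates 6, 8, 9 and 10, and 355, 345, 258 and 325 in MABs-allo 3d replicates 1 to 4. MABs-allo-VEGF 3d had 287, 283 and 313 in replicates 1 to 3 and 134 in replicate 4, and all 7d samples had 10.9 to 52.8. The groups at 3d did not overlap those at 7d, and MABs-allo 3d did not overlap saline 3d, while replicate 4 of MABs-allo-VEGF lay within saline. The log2 difference between 3d and 7d was 1.97 in saline (SE 0.45, limma adjusted p = 0.0201), 3.28 in MABs-allo (adjusted p = 6.17e-05) and 3.51 in MABs-allo-VEGF (adjusted p = 9.42e-05). Against saline at 3d, MABs-allo was 1.39 higher (SE 0.45, adjusted p = 0.0400) and MABs-allo-VEGF 0.99 (SE 0.45, adjusted p = 0.243). The call against saline was lost in 11 of 18 alternatives and that of saline 3d against 7d in 8 of 18, whereas both cell-treated 3d against 7d calls were kept in all 18. Over the 24 samples, log2 Sox6 had an r of 0.81 with the mitochondrial share, and 0.48 with group means removed. The part of the library measures in the Sox6 level was not tested.

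Sox13 (ENSRNOG00000028353) went the other way. It had 258 to 447 normalized counts in MABs-allo 3d and 472 to 904 in MABs-allo 7d, and 192 to 404 against 751 to 933 in MABs-allo-VEGF. Neither treatment overlapped between days, and the log2 differences were -1.07 (SE 0.30, limma adjusted p = 0.00955) and -1.40 (SE 0.30, adjusted p = 0.00216). In saline the difference was -0.87 (SE 0.30, adjusted p = 0.106), and the groups, 320 to 890 and 656 to 1201, overlapped. The MABs-allo call was lost in 3 of 18 alternatives, where the log2 difference came to lie above -1. Sox10, the Schwann cell factor, was not called. Its highest sample was saline 3d replicate 8 with 2908 normalized counts. This was also the saline 3d sample with the highest summed Schwann cell markers, a sum that includes Sox10 (50645, others of the group 12732 to 13809). Over all samples the highest sum was in MABs-allo-VEGF 7d replicate 11 (67087), where Sox10 in the group reached 1213 at most.

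**Figure D5:**
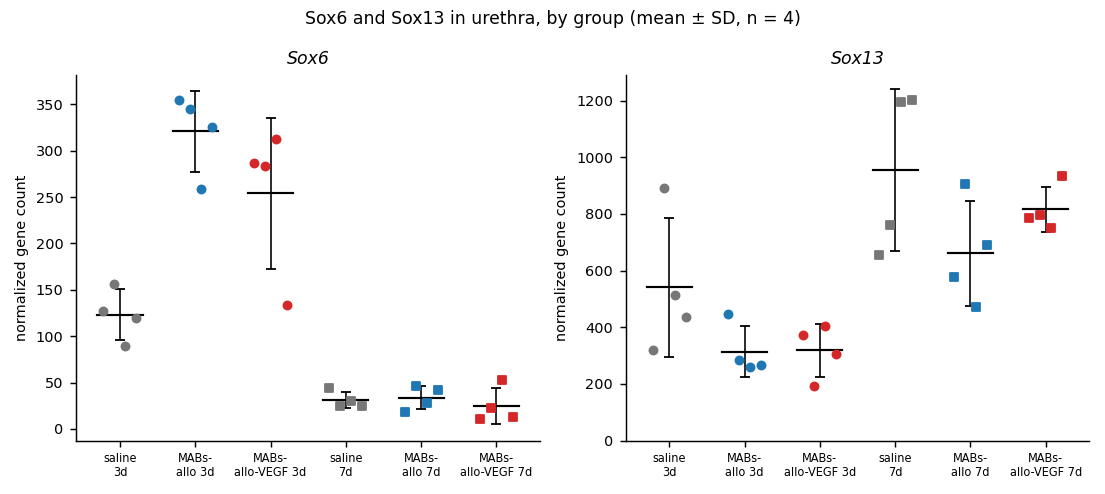
Normalized gene counts of Sox6 (left) and Sox13 (right) by group, with circles for 3d, squares for 7d, and lines for the mean ± SD (n = 4). Sox6 was higher at 3d than at 7d in every treatment, and Sox13 was lower at 3d in both cell treatments.

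Genes that work with SOX2 or answer to it were called about as often as all genes at 3d against 7d, with 2 of 12 in each cell treatment where 23.0% (MABs-allo) and 15.3% (MABs-allo-VEGF) of all genes were called. Of 15 listed partners and targets, 12 were tested, Trp63 matched no row and Pax6 was at 0 in every sample. Against saline at 3d none was called in either cell treatment (medians 0.21 and 0.08, over all genes 0.07 and 0.04). Between the days, Hes1, a Notch target (1.49, limma adjusted p = 0.0190), and Chd7, a chromatin remodeller that binds with SOX2 (1.17, adjusted p = 0.0401), were called higher in MABs-allo. Chd7 (1.27, adjusted p = 0.0382) and Nes, the neural and muscle progenitor filament nestin (1.68, adjusted p = 0.0157), were called higher in MABs-allo-VEGF. In saline 0 of 12 were called. The Chd7 calls were lost in 9 and 7 of 18 alternatives. Over the 24 samples with group means removed, the summed level of the list had an r of 0.80 with Sox2 and 0.01 with Sox11. Crebbp, the gene most like Sox2 and not on the list, had 0.85. MABs-allo 3d replicate 1, the sample with the most Sox2, also had the highest sum (39214, others of its group 19747 to 20718).

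Of 15 neuronal genes tied to SoxC factors, 14 were tested, and at 3d against 7d 3, 3 and 2 were called in saline, MABs-allo and MABs-allo-VEGF, where 3.19%, 23.0% and 15.3% of all genes were. The growth cone gene Gap43 was called higher at 3d than at 7d in saline (2.91, limma adjusted p = 0.00233), MABs-allo (2.06, adjusted p = 0.00118) and MABs-allo-VEGF (2.21, adjusted p = 0.00112), and it differed from saline at 3d by -0.37 in MABs-allo (adjusted p = 0.593) and -0.04 in MABs-allo-VEGF (adjusted p = 0.977). Dpysl3, an axon guidance gene, was called higher at 3d than at 7d in both cell treatments (6.10 and 5.37, adjusted p = 0.000658 and 0.00281) and was the one gene of the list called against saline, in MABs-allo at 3d (3.77, adjusted p = 0.0366, lost in 9 of 18 alternatives). That value was 1.79 with DESeq2 and 1.67 with edgeR on the reads, 2.66 without saline replicate 8 and 5.12 without saline replicate 6. Map2 was called in MABs-allo (1.34, adjusted p = 0.0141), and Dcx (3.16, adjusted p = 0.0445) and Prph (1.35, adjusted p = 0.0244) in saline, where they were lost in 11 and 7 of 18 alternatives. The list's median against saline at 3d was -0.23 in MABs-allo and 0.07 in MABs-allo-VEGF.

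Markers of other cell types are given beside these. In MABs-allo against saline at 3d, where 12.3% of all genes were called (1531 higher and 466 lower of 16287), 2 of 6 striated muscle and 1 of 4 muscle precursor genes were called higher, 2 of 4 fibroblast genes lower, 1 of 15 epithelial genes higher, and 0 of 14 Schwann cell, 0 of 5 smooth muscle and 0 of 3 erythroid genes were called. The median log2 fold changes of these lists there were, in the same order, 1.47, 1.21, -1.49, 0.81, -1.40, -0.10 and -1.06, against 0.07 over all genes. In MABs-allo-VEGF against saline no gene of these lists was called. Summed muscle precursor genes reached 1938 to 4139 in MABs-allo 3d and 2329 to 6067 in MABs-allo-VEGF 3d, against 636 to 2791 in saline 3d. With group means removed, the r of the summed level with Sox2 was -0.30 for muscle precursor, 0.25 for epithelial, -0.45 for Schwann cell, -0.51 for fibroblast, -0.55 for erythroid, -0.34 for striated muscle and -0.02 for smooth muscle genes, and the part of these cell types in the Sox values was not tested.

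Among the genes whose log2 level ran most like that of Sox2 over the 24 samples were Crebbp, a histone acetyltransferase (r = 0.96, rho = 0.98, and r = 0.85 with group means removed), Pcm1, of the centriolar satellites (0.95, 0.97 and 0.83), Ccdc174 (0.95, 0.95 and 0.85) and Ralgapa1 (0.95, 0.98 and 0.80). For Sox11 they were Msl2 (0.94, 0.92 and 0.80), Bbx, another HMG-box gene (0.93, 0.90 and 0.75), the kinesin gene Kif1b (0.92, 0.88 and 0.69), Ric1 (0.92, 0.91 and 0.67) and Map3k20 (0.91, 0.92 and 0.72). The samples share depth, day and treatment, so these values describe this set only.

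For Sox9 they were Ppp2r3a, Creb3l4 and Zfp804b (r = 0.80, 0.78 and 0.76). Sox17 was followed most closely by the receptor gene Ephb1, the water channel gene Aqp1, which endothelium expresses, and Npr2 (r = 0.81, 0.71 and 0.71), and Sox18 by Pgm3, Reck and Lsm8 (r = 0.76, 0.75 and 0.73). No gene was among the likest of 2 members.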

How the data were processed

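Members and gene lists were chosen with earlier results of these data known. The authors sequenced QuantSeq 3′ mRNA libraries of urethral RNA, aligned reads with HISAT2 to Rnor6.0, discarded multi-mapped reads, used HT-seq Count for gene counts and scaled these by size factors from DESeq2. Tools other than HISAT2 and HTSeq are from the paper's methods, and the strand setting of the counting was not given in the sources used here. The deposited signal is thus a normalized gene count, of which 100% of values came out as whole reads (within 0.001 read). The 24 samples held 2170695 to 10166052 reads, which limits precision for genes of few reads such as Sox11 and Sox18. Groups and recovery came from the labels. Members were matched by symbol and 14 relatives likewise.

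In R 4.3.3, limma 3.58.1 (lmFit, then eBayes with a trend) tested log2(normalized gene count + 1), two-sided with Benjamini-Hochberg adjustment over 16287 genes with a mean of at least 2, in 1 fit of 6 groups (7 groups for recovery). Sox2 and Sox11 were tested only in 7d comparisons. Alternatives were quantile normalization, sample weights, a filter at 10 or none, a pseudocount of 5, scaling all samples to the same total, only the groups compared, DESeq2 1.42.0 and edgeR 4.0.16 on the recovered reads, the replicate block, leaving out the 2 samples that stood apart, and leaving out each sample. Besides the members, named genes were the relatives called, the 5 (Sox2, Sox11) or 3 genes with the highest Pearson r among those with a mean of at least 50 (1 of those for Sox2 is not reported here), and genes of the lists that were called, some of them outside the rule of the 3 most abundant per list and named after their values were seen. Fold changes of members other than Sox2 are printed only beyond 0.5. The scripts were tested on simulated data. Pairs of replicates in a group differed beyond counting noise (chi-square per degree of freedom 9.00 to 121, 36 pairs), so none was merged.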

Additional observations from a re-analysis of the deposited data

Results flagged for a closer look

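Among 30 sets of 4 samples (5 factors in 6 groups), 3 samples lay farther from their group than Dixon's test allows at the 95% level. Chance gives about 1 in 20 for continuous values, a rate that does not hold for the sets of few reads (Sox11 and Sox18). MABs-allo 3d replicate 1 had 3145 normalized counts of Sox2, far above the 957 to 1265 of the other 3, and 35.4% of its reads were mitochondrial. Saline 7d replicate 1 had 3.38 normalized counts of Sox11, which is 1 read where the other 3 had 0, a pattern that is always flagged. Saline 3d replicate 6 had 6.89 normalized counts of Sox18, or 2 reads against 5 or 6, and is the saline sample that stood apart on the first principal component.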

How the results depend on the processing

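For 9 of the 10 comparisons the number of tested Sox factors called was 0 under all alternatives run. For MABs-allo against saline at 3d it was 1 (Sox17) with quantile normalization and 1 with scaling to the same total, and 0 to 1 when 1 sample was left out, the 1 being without saline replicate 10. Signs that reversed were those of Sox18 in MABs-allo against saline at 3d, 0.77 with DESeq2 and 0.62 with edgeR, Sox9 in MABs-allo-VEGF against MABs-allo at 3d, 0.10 with sample weights, Sox9 in MABs-allo-VEGF against saline at 3d, from 0.10 to -0.14 with scaling to the same total, and Sox2 in MABs-allo-VEGF against MABs-allo, -0.06 to 0.51 at 3d and -0.015 to 0.55 at 7d over the samples left out. Apart from that Sox9 value, differences under 0.5 of factors other than Sox2 are not listed here. The cause was not tested. A pseudocount of 5 lowered the fitted Sox11 difference from saline at 3d in MABs-allo to 2.82, from 3.78. That difference was 3.06 without saline replicate 8 and 4.225 without both samples that stood apart. In MABs-allo-VEGF it was 3.04, with 2.31 without saline replicate 8 and 4.11 without both samples that stood apart. The replicate block (MABs-allo-VEGF against MABs-allo at 3d) called 0 of 3 factors, as without it, and 0 of all genes. With the block, 1215 of all genes were below an unadjusted limma p of 0.05, and 524 with only the same samples and no block. Same-numbered samples of these groups correlated at 0.222, 0.151, 0.073 and 0.254 in their deviations, and 3 of 4 correlated best with their own number. The labels name no pairing, so the reported fits took none, and whether these samples shared a block was not tested further.

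The counts over all genes, against which the factors were read, moved more. For MABs-allo against saline at 3d (1997, of which 1531 higher) they were 5 with only the groups compared, 2951 without both samples that stood apart, and 369, 732, 932 and 1104 without saline replicate 8, MABs-allo replicates 1 and 3 and saline replicate 9. Quantile normalization gave 2228, of which 1253 higher, and scaling to the same total 2130, of which 1109 higher. For MABs-allo 3d against 7d these scalings gave 2186 of 4033 and 2363 of 3989 higher (2765 of 3751 in the reported fit), and for MABs-allo-VEGF 1645 of 2422 and 1845 of 2467 (2132 of 2497). For MABs-allo-VEGF against saline at 3d (5) sample weights gave 1497, DESeq2 397, a pseudocount of 5 181, leaving out MABs-allo-VEGF replicate 4 1258 and saline replicate 6 1112. For saline 3d against 7d (520) sample weights gave 1852, DESeq2 1383, edgeR 988, only the groups compared 0, and leaving out both samples that stood apart 31. At 7d, sample weights called 8, 147 and 3 genes in the 3 comparisons, where the reported fit called 0. With few reads, Sox11 outside the cell-treated 3d groups and Sox18 could not be ranked between groups.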
